A study of Mus musculus with 6 samples.

Results

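The 9 genes described here, Bcl2, Bcl2l1, Mcl1, Bak1, Bcl2l11, Bid, Bad, Bmf and Pmaip1, belong to the BCL2 family, which sets whether a cell enters apoptosis through its mitochondria. They were picked by gene name, and all 9 were found among 37315 genes of the abundance table and 19402 genes of the allele table. RNA-seq had been run on 3 immortalised mouse B cell lines, the female line Abl.2, the male line Abl.3 and the female line Abl.4. Each is a single clone from an F1 cross of 129S1/SvImJ and CAST/EiJ mice, so that SNPs separate the maternal from the paternal copy of a gene. All 3 lines were controls kept in growth medium with 1% DMSO, a solvent, and live cells were taken on day 2 after a density gradient. From each line 2 libraries were sequenced, labelled as replicates of library preparation. The p-values below therefore measure the spread between libraries and may be technical, and a difference between lines is a difference between single clones. Abl.2 against Abl.4 compares females, and either of them against Abl.3 compares clones that also differ in sex, so clone and sex cannot be told apart there.

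In the mitochondrial pathway, the antiapoptotic proteins BCL2, BCL-XL (from Bcl2l1) and MCL1 hold back the effector proteins BAK and BAX, which otherwise open the outer mitochondrial membrane and let cytochrome c out. The BH3-only proteins, here BIM (Bcl2l11), BID, BAD, BMF and NOXA (Pmaip1), bind antiapoptotic members or activate the effectors. Developing B cells are known to depend on MCL1 and BCL-XL, and BIM is known for removing self-reactive lymphocytes.

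Abundance is given as TPM, transcript abundance that the authors scaled to transcript length and library total, so levels can be set side by side between genes. The maternal share is the maternal allelic count over the counts of both alleles. Library totals of allelic counts lay between 18362319 and 26881211, and the members had from 41 to 9345 allelic counts per library. Every member passed both filters on low values, a mean of 1 TPM for abundance and 20 allelic counts in each library for shares. All 10 B-lineage markers were at 1 TPM or more in every library, with a summed level of 12605 to 14003 TPM. The summed T cell markers stayed at or below 0.07 TPM, with Cd3g, Cd4 and Trac at 0. Myeloid markers summed to 159 to 193 TPM in Abl.2, 75.0 to 97.2 TPM in Abl.3 and 77.9 to 89.4 TPM in Abl.4, with Cd14 and Elane at 0. Natural killer markers summed to 14.1 to 16.1 TPM in Abl.2, 0.77 to 1.05 TPM in Abl.3 and 5.48 to 6.83 TPM in Abl.4, with Klrk1 and Ncr1 at 0. Stromal markers summed to 24.1 to 24.8, 18.0 to 18.4 and 50.1 to 55.4 TPM in the same order, with Col1a2 at 0. Red cell markers stayed at or below 0.69 TPM, with Hbb-bt at 0. Their part in the results below was not tested. In bulk RNA, fewer cells of a type and less RNA per cell cannot be told apart.

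The levels of the members spanned from under 1 TPM to over 300 TPM, and the 7 highest kept the order of their line means in all 3 lines. Mcl1 had the highest mean over the libraries and lay at the 93.4th percentile of the 11003 genes tested, followed by Bcl2l1 at the 88.9th, Bad at the 79.0th, Bid at the 69.4th and Bcl2l11 at the 62.4th. Bak1 lay at the 27.3rd percentile, Bmf at the 20.4th, Pmaip1 at the 14.3rd and Bcl2 at the 11.5th. The gene that gives the family its name was thus the lowest of the 9 by mean over all libraries. In Abl.2 alone Pmaip1 was lower, at a mean of 0.41 TPM against 1.825 TPM for Bcl2. Over the 6 libraries, the ranges of neighbours in this order overlapped for Bid with Bcl2l11, Bak1 with Bmf, Bmf with Pmaip1 and Pmaip1 with Bcl2, and did not overlap for the others.

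**Figure D1:**
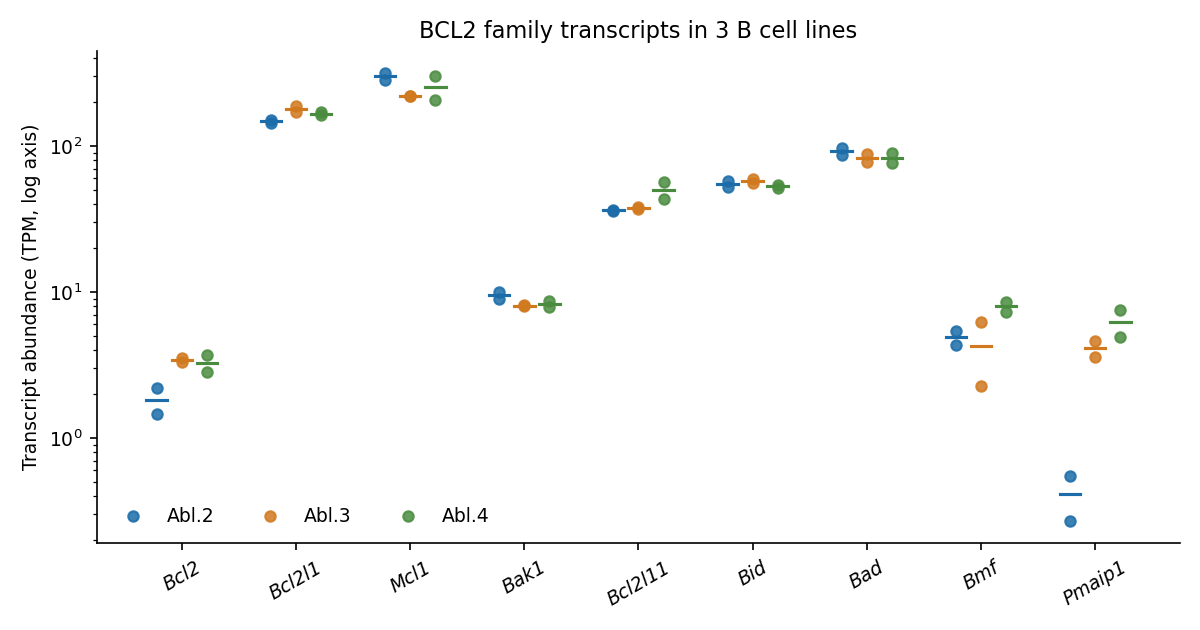
Abundance of the 9 members (TPM, log axis) in each of the 6 libraries. Points are libraries, colours are lines and short bars are means of 2 libraries; Pmaip1 in Abl.2, at 0.27 and 0.55 TPM, lies below every library of the other lines, while Bid stays between 51.7 and 59.7 TPM in all 6.

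Of the 9 members, 3 differed in abundance between Abl.2 and Abl.3, a share to be read against 39.8% of all genes tested, and each was lower in Abl.2, as were 14.0% of all genes. Between Abl.2 and Abl.4, 2 members differed, against 33.5% of all genes, and again both were lower in Abl.2, as were 18.4% of all genes. Between Abl.3 and Abl.4, 0 of 9 differed by limma, against 38.1% of all genes (11.3% higher and 26.8% lower in Abl.3). In that pair, 2 members had an unadjusted p under 0.05 by limma, against 48.8% of all genes, and 3 members were called by edgeR on the summed counts of both alleles, against 37.3% of all genes in that fit. The median log2 difference of the 9 members was -0.05, -0.18 and -0.02 in the pairs Abl.2 against Abl.3, Abl.2 against Abl.4 and Abl.3 against Abl.4. Over all genes tested it was 0.10, -0.03 and -0.15. Leaving out Abl.2 replicate 2 or Abl.3 replicate 1 brought the count between Abl.2 and Abl.3 to 1, Pmaip1. Between Abl.2 and Abl.4 the count was 1, again Pmaip1, without Abl.2 replicate 1, Abl.2 replicate 2, Abl.3 replicate 2 or Abl.4 replicate 2. Between Abl.3 and Abl.4, limma called Bmf without Abl.3 replicate 2, Bcl2l11 without Abl.4 replicate 1 and Mcl1 without Abl.4 replicate 2. A line left with 1 library gives no spread of its own, so these gained calls rest on the spread of the other lines. Shares of all genes called with a library left out are not given here, so those counts cannot be read as particular to the members. The pairs share libraries and are not independent of each other.

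Among the antiapoptotic members, Mcl1 (ENSMUSG00000038612, GRCm38 chr3:95658788-95663176, plus strand) encodes a short-lived protein that sequesters BIM and NOXA. Its TPM values were 315 and 284 in Abl.2, 220.2 and 219 in Abl.3, and 299 and 207 in Abl.4. The Abl.2 libraries were above those of Abl.3, while the Abl.4 libraries overlapped those of Abl.2 and lay on either side of those of Abl.3. The difference of 0.44 ± 0.17 (SE) on the log2(TPM + 1) scale between Abl.2 and Abl.3 did not pass the threshold in limma (Benjamini-Hochberg adjusted p = 0.0756), while edgeR on summed allelic counts called it. Both parental copies gave like counts. The maternal share was 51.3% and 47.8% in Abl.2, 49.2% and 49.1% in Abl.3, and 49.7% and 48.3% in Abl.4, so every library lay within a few points of equal counts.

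Bcl2l1 (ENSMUSG00000007659, GRCm38 chr2:152780668-152831728, minus strand) encodes BCL-XL and, by alternative splicing, a proapoptotic form that these gene-level values do not separate. It stood at 151 and 143 TPM in Abl.2, 187 and 169.5 TPM in Abl.3, and 170.2 and 163 TPM in Abl.4. Both Abl.2 libraries were below the others. The difference from Abl.3 was small, -0.27 ± 0.081 (SE) on the log2(TPM + 1) scale, and passed the threshold in limma (Benjamini-Hochberg adjusted p = 0.0368), but it lost the call without either library of Abl.2 or of Abl.3 and without the filter on low values, with adjusted p up to 0.177. Its maternal share was 45.6% and 44.3% in Abl.2, 49.2% and 47.9% in Abl.3, and 51.2% and 48.3% in Abl.4. The paternal excess in Abl.2, a log2 maternal over paternal ratio of -0.29 ± 0.081 (SE), passed in edgeR's quasi-likelihood test (Benjamini-Hochberg adjusted p = 0.0121). It lost the call without either Abl.2 library and with a block for replicate number.

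Bcl2 (ENSMUSG00000057329, GRCm38 chr1:106538178-106714274, minus strand) was low in TPM, and its allele ratio differed between lines. TPM was 2.19 and 1.46 in Abl.2, 3.52 and 3.29 in Abl.3, and 2.81 and 3.68 in Abl.4. Both Abl.2 libraries were the lowest, and Abl.3 and Abl.4 overlapped. The fit gave -0.65 ± 0.20 (SE) on the log2(TPM + 1) scale for Abl.2 against Abl.3 (limma, Benjamini-Hochberg adjusted p = 0.039) and -0.59 ± 0.20 (SE) for Abl.2 against Abl.4, which was not called (limma, Benjamini-Hochberg adjusted p = 0.0605). The call against Abl.3 was lost without the filter on low values and without Abl.2 replicate 2, Abl.3 replicate 1 or Abl.3 replicate 2, with adjusted p up to 0.177. The call against Abl.3 was also lost with a change of at least 1. It was kept under 7 of 12 alternatives, edgeR on summed allelic counts among them. The log2 difference was negative in all 12, from -1.27 to -0.47. Relative to the allelic total of the library, the mean of both alleles together was 2.40 times higher in Abl.3 than in Abl.2. For mean TPM this ratio was 1.87. Between Abl.2 and Abl.4, edgeR on summed allelic counts did call Bcl2, at a log2 difference of -0.93 (Benjamini-Hochberg adjusted p = 0.00287).

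The Bcl2 alleles were counted at 212 maternal and 37 paternal in Abl.2 replicate 1, and at 185 and 44 in replicate 2. In Abl.3 the maternal and paternal counts were 183 and 263 in replicate 1, and 188 and 257 in replicate 2. In Abl.4 they were 174 and 160 in replicate 1, and 238 and 169 in replicate 2. This put the maternal share in Abl.2 at 83.0% ± 3.08 (SD, n = 2), that in Abl.3 at 41.6% ± 0.860 (SD, n = 2) and that in Abl.4 at 55.3% ± 4.51 (SD, n = 2), and the libraries of the 3 lines did not overlap. Against Abl.3, the log2 maternal over paternal ratio of Abl.2 was 2.77 ± 0.29 (SE) higher (edgeR quasi-likelihood, Benjamini-Hochberg adjusted p = 1.82e-05). Against Abl.4 it was 1.98 ± 0.29 (SE) higher (edgeR quasi-likelihood, Benjamini-Hochberg adjusted p = 0.000364). The difference of -0.80 ± 0.26 (SE) between Abl.3 and Abl.4 did not pass (edgeR quasi-likelihood, Benjamini-Hochberg adjusted p = 0.0682). An antisense gene, D630008O14Rik, shares 558 of the 9157 exon bases of Bcl2 and was at or below 0.095 TPM on average in each line.

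In counts per 1e6 allelic counts of the library (CPM below), the maternal Bcl2 copy gave 9.34 and 6.88 in Abl.2, 9.21 and 10.2 in Abl.3, and 8.70 and 11.9 in Abl.4, so the lines overlapped. The paternal copy gave 1.63 and 1.64 in Abl.2, 13.2 and 14.0 in Abl.3, and 8.0 and 8.45 in Abl.4. The paternal mean was 8.34 times higher in Abl.3 and 5.03 times higher in Abl.4 than in Abl.2, against 1.2 and 1.27 times for the maternal mean. These values of single alleles were not tested between lines.

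The promoter of Bcl2 is shown since its allele ratio shifted more between lines than that of any other member with a promoter entry. The RefSeq table (GRCm38.p6), in which 8 of the 9 members had 14 promoter windows, gives 250 bases before the start, chr1:106714291-106714540 on the minus strand, written 5′ to 3′ with each CpG dinucleotide (the letters CG) in capitals.
Bcl2: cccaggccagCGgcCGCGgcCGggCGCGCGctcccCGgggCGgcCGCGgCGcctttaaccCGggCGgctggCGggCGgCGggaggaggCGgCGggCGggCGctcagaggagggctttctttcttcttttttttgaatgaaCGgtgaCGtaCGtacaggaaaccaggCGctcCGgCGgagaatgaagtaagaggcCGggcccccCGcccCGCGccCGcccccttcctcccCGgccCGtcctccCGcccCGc
It holds 36 CpG. The whole 300-base window, which runs 50 bases past the RefSeq start, holds 44. That start lies upstream of the gene span given above. Of the 32851 windows of all genes, 2.25% hold as many or more, and the median is 7. This is the reference sequence, the same for both alleles as printed, and methylation was not measured.

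**Figure D2:**
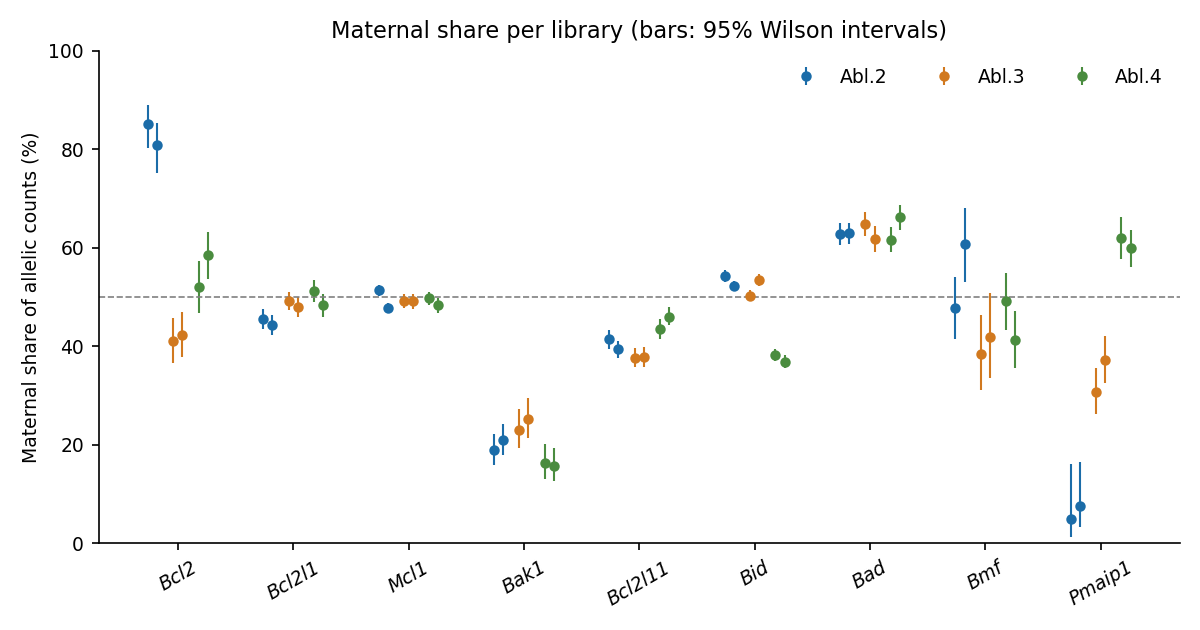
Maternal share of allelic counts (percent) for each member in each of the 6 libraries, with 95% Wilson intervals that cover counting error only. The dashed line marks equal counts; Bcl2 and Pmaip1 in Abl.2 lie on opposite sides of it, at 83.0% and 6.23% on average, while Mcl1 lies near it in all 6 libraries.

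Set against each other per length, Mcl1 made up 67.3% and 66.2% of the summed TPM of the 3 antiapoptotic members in Abl.2, 53.6% and 55.9% in Abl.3, and 63.4% and 55.4% in Abl.4. Bcl2l1 made up 32.3% and 33.5% in Abl.2, 45.5% and 43.3% in Abl.3, and 36.0% and 43.6% in Abl.4. Bcl2 stayed between 0.341% and 0.984%. Abl.2 was thus the line with the highest Mcl1 part in both libraries, and the Abl.4 libraries lay apart from each other.

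Bak1 (ENSMUSG00000057789, GRCm38 chr17:27019810-27029009, minus strand), the effector among the members, had no call by abundance and was uneven in its alleles. Its TPM values were 9.99 and 8.95 in Abl.2, 7.96 and 8.15 in Abl.3, and 8.61 and 7.83 in Abl.4. Both Abl.2 libraries were above all others, but no pair was called. The maternal share was 18.9% and 20.9% in Abl.2, 23.1% and 25.2% in Abl.3, and 16.3% and 15.8% in Abl.4. The paternal copy was therefore counted more in all 6 libraries, with log2 maternal over paternal ratios of -2.01 ± 0.15, -1.65 ± 0.16 and -2.39 ± 0.17 (SE), each called by edgeR's quasi-likelihood test. The difference of 0.73 ± 0.23 (SE) in that ratio between Abl.3 and Abl.4 did not pass (edgeR quasi-likelihood, Benjamini-Hochberg adjusted p = 0.0572), though it was called under some alternative setting. Of its 2407 exon bases, 437 overlap Ggnbp1 on the other strand. Ggnbp1 was at 0.35 to 0.565 TPM on average, with maternal shares of 38.1%, 49.5% and 41.8% in Abl.2, Abl.3 and Abl.4. The median share over genes of chromosome 17 was 50.3%, 54.9% and 50.02% in the same order.

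Among the BH3-only members, Bad (ENSMUSG00000024959, GRCm38 chr19:6941861-6951898, plus strand), whose protein binds BCL2 and BCL-XL unless phosphorylated by survival kinases, showed the opposite tilt in all lines. Its maternal share was 62.8% and 63.0% in Abl.2, 64.8% and 61.8% in Abl.3, and 61.7% and 66.2% in Abl.4, and the lines overlapped. The log2 maternal over paternal ratio was 0.76 ± 0.10, 0.79 ± 0.10 and 0.82 ± 0.10 (SE), each called by edgeR's quasi-likelihood test. Abundance ran from 76.1 to 96.8 TPM, with overlap between all lines. Gpr137, on the other strand, shares 524 of the 2558 exon bases of Bad, was at 12.9 to 16.8 TPM on average and had maternal shares of 46.3%, 47.3% and 55.5% in Abl.2, Abl.3 and Abl.4. The strand setting of the counting is not given in the sources used here, so reads from such overlapping exons cannot be assigned to a gene.

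Bid (ENSMUSG00000004446, GRCm38 chr6:120891930-120916853, minus strand), whose protein is cut by caspase-8 and then acts on mitochondria, stood apart in Abl.4 by its allele ratio. TPM was 52.4 and 57.7 in Abl.2, 59.7 and 55.6 in Abl.3, and 54.2 and 51.7 in Abl.4, and limma called no pair. On summed allelic counts, edgeR called Abl.3 against Abl.4, where the mean CPM of both alleles together was 1.26 times higher in Abl.3. Maternal counts made up 54.3% and 52.3% in Abl.2, 50.2% and 53.5% in Abl.3, and 38.2% and 36.9% in Abl.4. Both Abl.4 libraries lay below all others. The log2 maternal over paternal ratio was higher in Abl.2 than in Abl.4 by 0.92 ± 0.084 (SE; edgeR quasi-likelihood, Benjamini-Hochberg adjusted p = 8.07e-06). It was higher in Abl.3 than in Abl.4 by 0.84 ± 0.084 (SE; edgeR quasi-likelihood, Benjamini-Hochberg adjusted p = 3.81e-05). Abl.2 and Abl.3 differed by 0.08 ± 0.083 (SE), which did not pass (edgeR quasi-likelihood, Benjamini-Hochberg adjusted p = 0.564).

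These Bid shares rest on 5510 to 9345 allelic counts per library. In CPM, the maternal copy gave 166 and 182 in Abl.2, 188 and 182 in Abl.3, and 111 and 102 in Abl.4. The paternal copy gave 139 and 166 in Abl.2, 186 and 159 in Abl.3, and 179 and 174 in Abl.4. The maternal mean was thus 1.64 times higher in Abl.2 and 1.74 times higher in Abl.3 than in Abl.4. The paternal libraries of Abl.3 and Abl.4 overlapped. Those of Abl.2 lay below those of Abl.4, where the paternal mean was 1.16 times higher. Bcl2l13, another family member, shares 628 of the 3550 exon bases of Bid on the other strand. It was at 16.5 to 20.3 TPM on average, with maternal shares of 48.6%, 47.8% and 45.7% in Abl.2, Abl.3 and Abl.4.

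The promoter of Bid is shown for comparison with that of Bcl2, since its allele ratio in Abl.4 differed from that in each other line. Its 250 bases before the RefSeq start (GRCm38.p6, chr6:120916825-120917074, minus strand, 5′ to 3′, CpG in capitals) hold 18 CpG. That start lies inside the gene span given above, so some of these bases belong to the gene by that span.
Bid: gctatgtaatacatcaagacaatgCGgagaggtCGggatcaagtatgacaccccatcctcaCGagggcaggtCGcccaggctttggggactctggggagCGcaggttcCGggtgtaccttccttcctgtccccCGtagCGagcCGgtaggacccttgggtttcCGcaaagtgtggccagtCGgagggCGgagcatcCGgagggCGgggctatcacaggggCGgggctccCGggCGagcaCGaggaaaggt
The whole 300-base window holds 22, and 23.1% of all windows hold as many or more. Over the 14 windows of the 8 members, the number ran from 1, at 1 of the 3 Bcl2l1 starts, to the 44 of Bcl2.

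**Figure D3:**
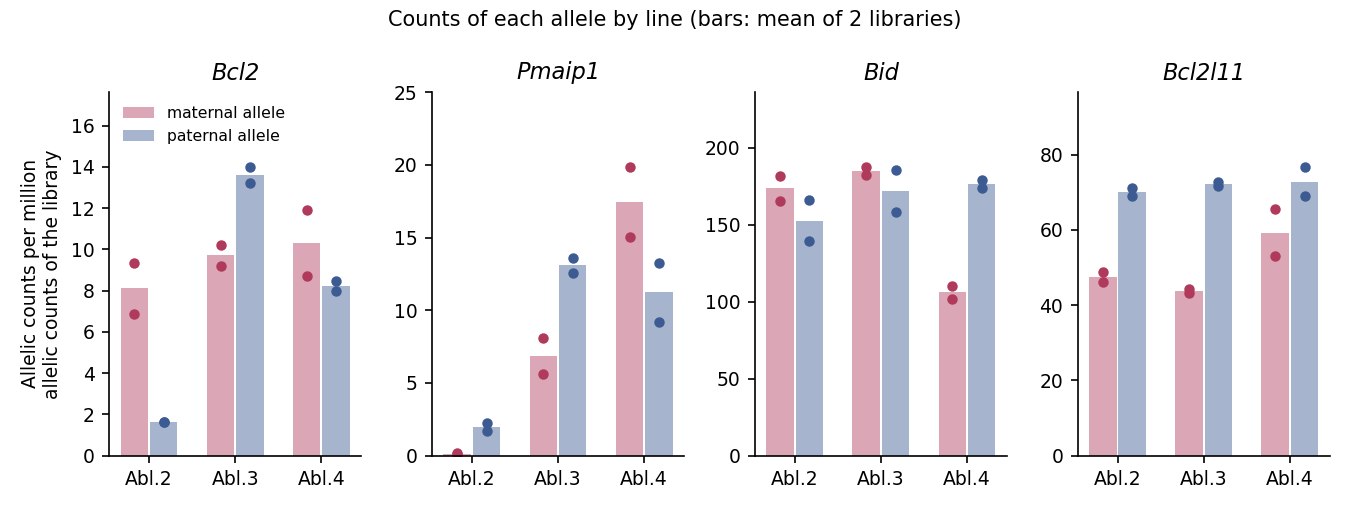
Counts of the maternal and the paternal allele per 1e6 allelic counts of the library (CPM) for Bcl2, Pmaip1, Bid and Bcl2l11. Points are libraries and bars, which start at 0, are means of 2; for Bcl2 the paternal bar is lowest in Abl.2, at 1.63 and 1.64, and for Bid the maternal bar is lowest in Abl.4, at 111 and 102.

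Bcl2l11 (ENSMUSG00000027381, GRCm38 chr2:128126038-128162547, plus strand), the gene of BIM, was highest in Abl.4. Its TPM values were 36.0 and 36.3 in Abl.2, 37.0 and 38.2 in Abl.3, and 43.5 and 56.9 in Abl.4. Both Abl.4 libraries exceeded the others, and they also lay farthest apart. The difference, Abl.2 minus Abl.4, was -0.45 ± 0.13 (SE) on the log2(TPM + 1) scale (limma, Benjamini-Hochberg adjusted p = 0.0402), a call lost under 9 of 13 alternatives, edgeR on summed allelic counts among them, with adjusted p up to 0.205. Maternal counts made up 41.4% and 39.4% in Abl.2, 37.7% and 37.8% in Abl.3, and 43.5% and 46.0% in Abl.4, so the paternal copy was counted more in all 6 libraries. This paternal excess was called in each line by edgeR's quasi-likelihood test, with log2 ratios of -0.56 ± 0.077, -0.72 ± 0.079 and -0.30 ± 0.077 (SE). In Abl.4 it lost the call without replicate 1.

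The Bcl2l11 ratio differed between Abl.3 and Abl.4 by -0.42 ± 0.11 (SE; edgeR quasi-likelihood, Benjamini-Hochberg adjusted p = 0.0254). That call was lost without Abl.3 replicate 1, Abl.3 replicate 2 or Abl.4 replicate 2, with adjusted p up to 0.130. In CPM, the maternal copy gave 43.3 and 44.3 in Abl.3 and 53.1 and 65.5 in Abl.4, and the paternal copy gave 71.7 and 72.9 in Abl.3 and 68.9 and 76.7 in Abl.4.

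Bmf (ENSMUSG00000040093, GRCm38 chr2:118528757-118549687, minus strand), whose protein is tied to the cytoskeleton through dynein light chain in healthy cells, was highest in Abl.4 and lay far apart between the Abl.3 libraries. It stood at 4.32 and 5.43 TPM in Abl.2, 2.28 and 6.21 TPM in Abl.3, and 8.56 and 7.34 TPM in Abl.4. The libraries of Abl.3 enclosed those of Abl.2, and both Abl.4 libraries were above all others. Limma called no pair on all 6 libraries, whereas edgeR on summed allelic counts called Abl.3 against Abl.4. With a library of Abl.3 left out, limma called Abl.3 against Abl.4 and Abl.2 against Abl.3 (without replicate 2) and Abl.2 against Abl.4 (without replicate 1). Abl.3 then had a single library and the spread came from the other lines, so these calls decide nothing. Maternal counts made up 47.7% and 60.8% in Abl.2, 38.5% and 41.9% in Abl.3, and 49.1% and 41.2% in Abl.4, on 124 to 277 allelic counts per library, and no line or pair was called.

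Pmaip1 (ENSMUSG00000024521, GRCm38 chr18:66458604-66465550, plus strand) encodes NOXA, a p53 target that binds MCL1, and was the member with the largest fitted difference in abundance. TPM was 0.27 and 0.55 in Abl.2, 3.59 and 4.62 in Abl.3, and 4.90 and 7.47 in Abl.4. Both Abl.2 libraries were far below the others, and every Abl.4 library was above every Abl.3 library. The mean was 10.0 times higher in Abl.3 and 15.1 times higher in Abl.4 than in Abl.2, and these ratios were 15.2 and 22.9 without Abl.2 replicate 2 and 7.46 and 11.2 without Abl.2 replicate 1. The difference, Abl.2 minus Abl.3, was -1.86 ± 0.23 (SE) on the log2(TPM + 1) scale (limma, Benjamini-Hochberg adjusted p = 0.00152). Against Abl.4 it was -2.33 ± 0.23 (SE; limma, Benjamini-Hochberg adjusted p = 0.000623). This scale understates the fold of so low a gene. Abl.3 and Abl.4 differed by -0.48 ± 0.23 (SE), which did not pass (limma, Benjamini-Hochberg adjusted p = 0.152).

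The paternal copy of Pmaip1 was counted more in Abl.2 and Abl.3, and the maternal copy in Abl.4. Abl.2 had 2 maternal and 39 paternal counts in replicate 1, and 5 and 61 in replicate 2. Abl.3 had 111 and 250 in replicate 1, and 148 and 250 in replicate 2. Abl.4 had 301 and 184 in replicate 1, and 397 and 265 in replicate 2. This put the maternal share of Abl.2 at 6.23% ± 1.91, that of Abl.3 at 34.0% ± 4.55 and that of Abl.4 at 61.0% ± 1.48 (SD, n = 2), and the libraries of the lines did not overlap. The 41 counts of Abl.2 replicate 1 leave a wide 95% Wilson interval for its share, from 1.35% to 16.1%.

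All 3 pairs passed for Pmaip1. The log2 maternal over paternal ratio of Abl.2 minus that of Abl.3 was -2.83 ± 0.46 (SE; edgeR quasi-likelihood, Benjamini-Hochberg adjusted p = 0.000667). Abl.2 minus Abl.4 gave -4.43 ± 0.43 (SE; edgeR quasi-likelihood, Benjamini-Hochberg adjusted p = 1.43e-05). Abl.3 minus Abl.4 gave -1.60 ± 0.26 (SE; edgeR quasi-likelihood, Benjamini-Hochberg adjusted p = 0.00141). Within lines, the paternal copy was ahead in Abl.2 at -3.79 ± 0.39 (SE) and in Abl.3 at -0.96 ± 0.19 (SE), and the maternal copy in Abl.4 at 0.64 ± 0.18 (SE), each called by edgeR. The call in Abl.3 was lost without Abl.3 replicate 1. That in Abl.4 was lost without either Abl.4 library and with a block for replicate number.

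In CPM, maternal Pmaip1 gave 0.088 and 0.186 in Abl.2, 5.59 and 8.06 in Abl.3, and 15.0 and 19.8 in Abl.4. The paternal copy gave 1.72 and 2.27 in Abl.2, 12.6 and 13.6 in Abl.3, and 9.20 and 13.2 in Abl.4. Both copies were thus lowest in Abl.2, and the paternal mean was 6.57 times higher in Abl.3 and 5.63 times higher in Abl.4. In the paternal values Abl.3 and Abl.4 overlapped, and in the maternal values they did not.

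Summed over the 5 BH3-only members, TPM stayed between 183 and 201 in all 6 libraries, which was 40.5% to 53.3% of the antiapoptotic sum of the same library. Bad made up 38.2% to 51.0% of the BH3-only sum, Bid 25.9% to 31.3% and Bcl2l11 19.0% to 28.5%. Pmaip1 made up 0.142% and 0.294% in Abl.2 and 1.88% to 3.74% in the other lines.

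Taking the allele results by line, 7 of 9 members had unequal alleles in Abl.2, against 49.1% of the 8702 genes tested; the maternal copy led in 3 of them, against 24.7% of genes, and the paternal copy in 4, against 24.4%. In Abl.3 the count was 4 of 9, against 45.1%, with the maternal copy ahead in 1 (22.5% of genes) and the paternal in 3 (22.6%). In Abl.4 it was 5 of 9, against 39.9%, with the maternal copy ahead in 2 (19.2%) and the paternal in 3 (20.7%). Bak1, Bad, Bcl2l11 and Pmaip1 were called in all 3 lines, with Pmaip1 in opposite directions. Bid in Abl.2 was the smallest of the calls, at 0.19 ± 0.058 (SE; edgeR quasi-likelihood, Benjamini-Hochberg adjusted p = 0.021). It was lost when the null was set at the allele totals of each library (edgeR, adjusted p = 0.736) and without Abl.2 replicate 1. With a block for replicate number, Bcl2l1 and Bid in Abl.2 and Pmaip1 in Abl.4 lost their calls. The count in Abl.4 was 3 without Abl.4 replicate 1. Differences between lines were called for 2 of 9 members between Abl.2 and Abl.3, against 28.4% of genes, with the maternal share of Abl.2 higher in 1 (15.4%) and lower in 1 (13.0%). They were called for 3 of 9 between Abl.2 and Abl.4, against 22.3%, with Abl.2 higher in 2 (12.7%) and lower in 1 (9.61%). For Abl.3 against Abl.4 it was again 3 of 9, against 16.5%, with Abl.3 higher in 1 (8.53%) and lower in 2 (7.93%). With 9 members, 1 gene more or less moves such a share by many points, and the list itself was not tested. For the alternative fits no share of all genes is given, so the calls lost under them cannot be set against it.

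In the authors' deposited table of maternal fractions with confidence limits, the limits left out 0.5 for 5 members in Abl.2, namely Bcl2, Bak1, Bcl2l11, Bad and Pmaip1, against 38.2% of all genes with limits in that line. They left out 0.5 for Bak1, Bcl2l11 and Bad in Abl.3 (27.2% of all genes), and for Bak1, Bid and Bad in Abl.4 (22.9% of all genes). For Bcl2, the authors' deposited table gives 0.83 (limits 0.67 to 0.95) in Abl.2, 0.42 (0.27 to 0.57) in Abl.3 and 0.56 (0.37 to 0.74) in Abl.4. For Pmaip1, the authors' deposited table gives 0.07 (0 to 0.41), 0.34 (0.2 to 0.5) and 0.61 (0.46 to 0.75) in the same order. For Bid in Abl.4, the authors' deposited table gives 0.38 (0.33 to 0.42). These limits are wider than the Wilson intervals of counting error.

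Distance from equal counts was also set against all 8480 autosomal genes tested. In Abl.2, 10.8% of them lay at least as far from 50% as Pmaip1, and 13.3% as far as Bcl2. For Bak1 in Abl.2 the figure was 14.2%, with 8.35% in Abl.3 and 5.11% in Abl.4, and for Bid in Abl.4 it was 19.2%.

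The allele shifts of Bcl2, Bid and Pmaip1 were set beside the 3 nearest tested genes on each side. Around Bcl2, the 6 neighbours had mean maternal shares of 41.6% to 56.2% in Abl.2, where Bcl2 stood at 83.0%. Among them, Zcchc2, 547.8 kb from Bcl2, was called between Abl.4 and each other line. Tsn, called between Abl.3 and each other line, lies 11756.6 kb away, whereas the other 5 lie within 874.3 kb. Around Pmaip1, the neighbours lay at 43.5% to 55.9% in Abl.2, where Pmaip1 stood at 6.23%, and at 49.2% to 63.9% in Abl.4, and the lowest adjusted p of their allelic differences was 0.254 (Lman1) between Abl.2 and Abl.3 and 0.0569 (Nedd4l) between Abl.2 and Abl.4, by edgeR with Benjamini-Hochberg adjustment. Nedd4l was called between Abl.3 and Abl.4. Around Bid, they lay at 42.7% to 52.4% in Abl.4, where Bid stood at 37.5%, and the lowest adjusted p over the 3 pairs was 0.0806, for Pex26 between Abl.2 and Abl.3 (edgeR, Benjamini-Hochberg). The median over all tested genes of chromosome 1 was 50.1%, 44.9% and 50.4% in Abl.2, Abl.3 and Abl.4, that of chromosome 18 was 49.7%, 45.8% and 50.2%, and that of chromosome 6 was 49.7%, 50.04% and 49.8%. Around Bcl2l11, neighbours lay at 44.0% to 78.5% in Abl.3, and Mrps5 was called between Abl.3 and each other line, where Bcl2l11 was called between Abl.3 and Abl.4.

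**Figure D4:**
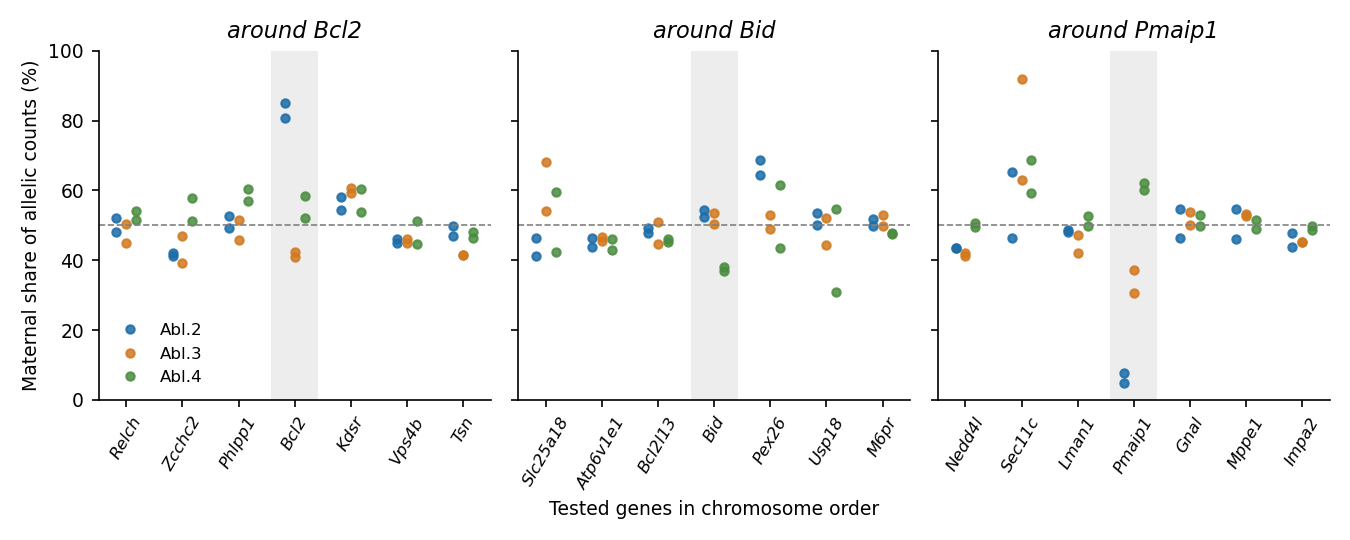
Maternal share (percent) of Bcl2, Bid and Pmaip1 (shaded) and of the 3 nearest tested genes on each side in chromosome order, by library. In Abl.2, Bcl2 lies above and Pmaip1 below all 6 of their neighbours on average. Bid in Abl.4, at 38.2% and 36.9%, lies below the range of the neighbours' means, 42.7% to 52.4%. By library, Usp18 in Abl.4 replicate 2 lies lower than Bid, at 30.8%.

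Other genes of the family were counted from a list of 14, of which 12 were in the abundance table and 6 were abundant enough to test. Between Abl.2 and Abl.3, 1 was higher and 2 were lower in Abl.2, against 25.9% and 14.0% of all genes. Between Abl.2 and Abl.4, 1 was higher and 1 lower in Abl.2, against 15.0% and 18.4%, and between Abl.3 and Abl.4, 3 were higher and 2 lower in Abl.3, against 11.3% and 26.8%. Bax, the other effector, changed in every pair, with 249 and 241 TPM in Abl.2, 321 and 321 TPM in Abl.3, and 209 and 187 TPM in Abl.4. Its call between Abl.2 and Abl.4, at 0.31 ± 0.079 (SE; limma, Benjamini-Hochberg adjusted p = 0.0256), was not kept by edgeR on summed allelic counts. Bok, an effector-like member, had 12.8 and 12.03 TPM in Abl.2, 3.03 and 2.99 TPM in Abl.3, and 13.6 and 12.1 TPM in Abl.4. Abl.2 exceeded Abl.3 by 1.74 ± 0.12 (SE) on the log2(TPM + 1) scale (limma, Benjamini-Hochberg adjusted p = 0.000128).

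Bbc3, the gene of PUMA and like Pmaip1 a p53 target, had 17.3 and 13.8 TPM in Abl.2, 25.8 and 27.3 TPM in Abl.3, and 19.8 and 12.9 TPM in Abl.4. Abl.2 was below Abl.3, at a difference of -0.74 ± 0.21 (SE; limma, Benjamini-Hochberg adjusted p = 0.0293). Abl.3 was also above Abl.4, by 0.70 ± 0.21 (SE, limma, Benjamini-Hochberg adjusted p = 0.0374), and Bbc3 was not called between Abl.2 and Abl.4. Bcl2l14 was highest in Abl.4, with 12.7 and 9.35 TPM against at most 2.58 TPM in the other lines. Bcl2l12 differed in 1 pair, by 0.44 ± 0.12 (SE) between Abl.3 and Abl.4 (limma, Benjamini-Hochberg adjusted p = 0.0276). Of the 5 with enough allelic counts, Bok was called for an allelic difference between Abl.2 and Abl.4 (1 of 5, against 22.3% of all genes), and its maternal share was at or above 96.7% in every library. None of the 5 was called between Abl.2 and Abl.3 or between Abl.3 and Abl.4, against 28.4% and 16.5% of all genes.

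Downstream of the members, 14 genes of the apoptosome and the caspases were tested. Of these, 5 were higher and 5 lower in Abl.2 than in Abl.3, against 25.9% and 14.0% of all genes. Against Abl.4, 1 was higher and 4 were lower in Abl.2 (15.0% and 18.4% of all genes), and 4 were higher and 5 lower in Abl.3 (11.3% and 26.8%). Casp6, an executioner caspase, had 5.66 and 5.17 TPM in Abl.2, 11.8 and 15.4 TPM in Abl.3, and 31.6 and 31.7 TPM in Abl.4, and all pairs were called by limma. Its maternal share was 0.758% and 0.772% in Abl.2, 95% and 95.4% in Abl.3, and 57.9% and 60.8% in Abl.4, with all pairs called by edgeR. Of the 10 genes of this list with enough allelic counts, 5, 4 and 4 differed in their alleles between Abl.2 and Abl.3, Abl.2 and Abl.4, and Abl.3 and Abl.4, against 28.4%, 22.3% and 16.5% of all genes. Among them was the X-linked Xiap, called in both pairs with the male line Abl.3. A male line has no paternal X copy to count, so such calls cannot be read like those of autosomal genes. Apaf1, the scaffold that cytochrome c activates, in Abl.2 exceeded its Abl.3 level by 0.85 ± 0.16 (SE; limma, Benjamini-Hochberg adjusted p = 0.00677). Cycs, the gene of somatic cytochrome c, stood lower in Abl.2 than in Abl.3, at a difference of -0.90 ± 0.27 (SE; limma, Benjamini-Hochberg adjusted p = 0.0387).

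Of 14 regulators and partners of the members, 7 were higher in Abl.2 than in Abl.3 by limma, against 25.9% of all genes, and the other 7 were not called. Against Abl.4, 6 were higher and 1 was lower in Abl.2 (15.0% and 18.4% of all genes), and 2 were higher and 2 lower in Abl.3 (11.3% and 26.8%). Pim2, a kinase that phosphorylates BAD, had 150.3 and 141 TPM in Abl.2, 105 and 86.1 TPM in Abl.3, and 63.4 and 58.2 TPM in Abl.4, with all pairs called. Foxo3, a transcription factor with Bcl2l11 among its known targets, had 25.3 and 21.3 TPM in Abl.2, 6.95 and 7.67 TPM in Abl.3, and 13.5 and 13.5 TPM in Abl.4, again with all pairs called. Trp53, the gene of p53, had 323 and 290.3 TPM in Abl.2, 245 and 230.2 TPM in Abl.3, and 252 and 230.1 TPM in Abl.4. The Abl.2 level exceeded that of Abl.3 by 0.36 ± 0.089 (SE; limma, Benjamini-Hochberg adjusted p = 0.0188), a call not kept by edgeR on summed allelic counts. It exceeded that of Abl.4 by 0.35 ± 0.089 (SE; limma, Benjamini-Hochberg adjusted p = 0.0261), which edgeR on summed allelic counts also called. Dynll2, a dynein light chain that binds BMF, stood lower in Abl.2 than in Abl.4, at a difference of -0.81 ± 0.13 (SE; limma, Benjamini-Hochberg adjusted p = 0.00512). Of the 13 regulators and partners with enough allelic counts, 4, 2 and 4 differed in their alleles in the same order of pairs, against 28.4%, 22.3% and 16.5% of all genes, among them the X-linked Huwe1, Usp9x and Pim2 in both pairs with the male line. As for Xiap, these X-linked calls cannot be read like those of autosomal genes, since the male line has no paternal X copy. Of the X-linked genes in these lists, Aifm1 had no test of its alleles, and Huwe1, Usp9x, Pim2 and Xiap had maternal shares of at most 2.08% in Abl.2 and Abl.4 and of at least 99.7% in Abl.3.

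Genes with the most similar profiles over the 6 libraries were found by the smallest root mean square difference in centred log2(TPM + 1). For Pmaip1 these were Eldr, at a difference of 0.178, and Endou, at 0.205. Eldr had 0.78 and 0.86 TPM in Abl.2, 3.6 and 4.9 TPM in Abl.3, and 6.61 and 7.83 TPM in Abl.4. For Bcl2 they were Dap3 at 0.0636 and Prkag2 at 0.0784, for Bcl2l1 Slc7a6os at 0.0301 and Cacfd1 at 0.0307, and for Bcl2l11 Zbtb34 at 0.0395 and Pgrmc2 at 0.0453. With 6 libraries and 11003 genes, such closeness is a description only.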

How the data were processed

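The abundance values are TPM, obtained by the authors with DESeq2 per the file headers. Allelic counts per gene were deposited as whole-number counts at SNP positions, and maternal fractions with limits were made by the authors from averaged replicates, per the file headers. STAR 2.5.4a, SAMtools, GATK, DESeq2 and the builds GRCm38, GRCh37 and mm10 stand, with no role, in the submitters' processing notes; the counting of reads over several SNPs is not given in the sources used here, and TPM keep no depth. Of 35412 named genes, 98.72% start where GENCODE M21 (GRCm38) has them.

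Abundance was tested with limma 3.58.1 (trend) on log2(TPM + 1) over the 11003 genes whose mean reached 1 TPM. Alleles were tested with edgeR 4.0.16 (quasi-likelihood; terms for each library and for the alleles of each line) for 8702 autosomal and X genes with at least 20 allelic counts in each library. All 6 libraries entered each fit, and Benjamini-Hochberg adjusted p below 0.05 counted as a call. A line's 2 libraries differed by more than counting noise (chi-square over degrees of freedom 12.5 to 21.8), so they were not treated as repeat deposits of 1 library; this does not show that they are biological replicates. Wilson intervals (95%) cover counting error only. March5 appears in the table as a date and was matched by its gene ID; Bcl2a1a and Bcl2a1d were not matched. All members were named; list genes were named among those called, and their counts cover the whole list; some genes of the lists are not reported here by name. The members and lists were chosen with earlier results of these data known. Alternatives were another pseudocount, other filters, quantile normalisation, edgeR on summed allelic counts, DESeq2 1.42.0 on allelic counts, a replicate block, other coverage minimums, a null at allele totals, minimum effect sizes and leaving out each library.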

Additional observations from a re-analysis of the deposited data

Results flagged for a closer look

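These results were picked out because the allele ratio differed between lines when that difference was tested directly (edgeR, quasi-likelihood), given as the log2 maternal over paternal ratio of the first line minus that of the second. For Bcl2, Abl.2 exceeded Abl.3 by 2.77 and Abl.4 by 1.98. For Pmaip1, Abl.2 minus Abl.3 was -2.83, Abl.2 minus Abl.4 was -4.43 and Abl.3 minus Abl.4 was -1.60. For Bid, Abl.2 exceeded Abl.4 by 0.92, and Abl.3 exceeded Abl.4 by 0.84. For Bcl2l11, Abl.3 minus Abl.4 was -0.42.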

How the results depend on the processing

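The abundance calls of Pmaip1, and the allelic differences of Bcl2, Bid and Pmaip1, kept their direction and call under every alternative that gave a value; with a mean of 5 TPM or a coverage of 50 counts Pmaip1 was not tested. Of members called by abundance between Abl.2 and Abl.3 (3), 1 was left with no filter, with a mean of at least 5 TPM and with a change of at least 1, and 1 to 4 when a library was left out. Between Abl.2 and Abl.4 (2), 1 was left under those settings and under quantile normalisation, and 1 to 3 when a library was left out. Between Abl.3 and Abl.4 (0), 1 was called with a mean of at least 5 TPM, 3 (Bcl2l1, Bid, Bmf) by edgeR on summed allelic counts, and 0 to 1 when a library was left out. The replicate block gave 4, 3 and 1 abundance calls in the 3 pairs, adding Mcl1, Bcl2l1 and Bcl2l11 respectively. The share of all genes called under the block is not given here, so this rise cannot be read as particular to the members. The labels give a number that marks library preparation only, and the deviations of same-numbered libraries correlated at 0.10, 0.19 and 0.16. The allele-by-replicate block kept the allelic difference counts at 2, 3 and 3. It gave 5, 4 and 4 members with unequal alleles in Abl.2, Abl.3 and Abl.4, against 7, 4 and 5. The members lost were Bcl2l1 and Bid in Abl.2 and Pmaip1 in Abl.4. The share of all genes called under this block is not given here, so the fall cannot be read as particular to the members. A coverage minimum of 50 left 1 allelic difference between Abl.2 and Abl.3, since Pmaip1 was not tested. A null at the allele totals, added for differences after the data were seen, gave 5 between Abl.2 and Abl.4, with Bcl2l1 and Bcl2l11 as well. It moved the median of all genes from 0.00 to -0.14 there. The share of all genes called under this null is not given here, so the 5 cannot be set against it. Members with unequal alleles in Abl.4 (5) were 3 to 5 when a library was left out. Signs turned in 5 alternatives among results called under some setting, with no call on the turned sign, and in 27 among results called under no setting. Among the former, when a library was left out, Bmf abundance between Abl.2 and Abl.3 ran from -0.30 (without Abl.3 replicate 1) to 0.83, Mcl1 abundance between Abl.2 and Abl.4 from -0.0015 (without Abl.4 replicate 2) to 0.53 and between Abl.3 and Abl.4 from -0.45 to 0.083 (without Abl.4 replicate 1), and Mcl1 allelic imbalance in Abl.2 from -0.12 to 0.077 (without Abl.2 replicate 2). The last was 0.026 with the block. For fits with a library left out, no share of all genes is given, so their member counts cannot be set against it. Causes of these changes were not tested unless stated. Depth limits Pmaip1 in Abl.2 and Bmf, with 41 and 124 allelic counts in their lowest libraries.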
